A study of Rattus norvegicus with 6 samples.

Results

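The ADAM, ADAMTS and ADAMTSL genes were taken as every array probe, controls aside, whose RefSeq transcript maps to a rat symbol made of Adam, Adamts or Adamtsl followed by a number. This gave 36 of 30367 probes, for 31 genes. The rule used names and no measured value, but it was set with earlier results of these data known. Another 23 of the 54 genes of these families in the RefSeq table had no matched probe and were not analysed here, among them Adam8, Adam12, Adam22 and the procollagen-processing Adamts2, Adamts3 and Adamts14. Total RNA was hybridized to 6 single-channel rat arrays. The sham group held 3 samples of rat brain after a sham operation, and the ICH group 3 samples of peripheral rat brain tissue with intracerebral hemorrhage, a bleed into the brain substance. The design text of the series calls the ICH replicates transfected, which no sample label does, and what was meant is not known here. All 6 samples carry the value day 1 under the tag age. Strain, how the bleed was made and which brain region was taken are not given in the sources used here. Within each group the samples are described as biological replicates, and their number, 3 per group, limits the precision.

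ADAMs are membrane-anchored metalloproteinases that cut other membrane proteins just outside the cell, a step called shedding that frees cytokines, growth factors and adhesion molecule ectodomains. Several ADAMs lack the residues for catalysis and act as adhesion molecules or receptors, among them neuronal ones that bind the LGI proteins at synapses. ADAMTS proteases are secreted and carry thrombospondin repeats, and the best known of them in brain cleave the hyaluronan-bound proteoglycans of the extracellular matrix. ADAMTS-like proteins share the repeats without the protease domain and sit in the matrix.

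Values are log2 signals relative to the 75th percentile of their array, so that a negative value lies below that percentile, and differences are ICH minus sham with the standard error (SE) of the limma fit, n = 3 arrays in each group. A gene was tested where its probe was well above background on at least 3 of the 6 arrays, and for a gene with several such probes the one with the highest mean was used. Of the 31 genes 25 passed, 23 of them well above background on all 6 arrays. The other 6 (Adam2, Adam3a, Adam7, Adam26a, Adam30 and Adamtsl5) were well above background on no sham array, and on no ICH array except for Adam30 on ICH 2. Adam2, Adam3a, Adam7, Adam26a and Adam30 are known from the male reproductive tract. In a bulk sample, fewer cells of a type and less RNA per cell cannot be told apart.

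No member was called. The limma test with Benjamini-Hochberg adjustment over 22179 rows called 0 members at an adjusted p under 0.05, and 0 rows in all (0% of rows), with member values from 0.287 to 0.913. At an unadjusted p under 0.05 it listed 4 of the 25 members, 16%, against 14.7% of all rows. The groups did not overlap in 7 of the 25, 28%, against 27.5% of all rows, so neither share sets the members apart from the array. By direction, 6 members had every ICH array above every sham array and 1 had every ICH array below, where 11.0% and 16.5% of all rows did. Of the 25 members 14 were higher on average and 11 lower, with a median difference of 0.20 beside −0.04 for all rows. The member median was 0.06 without ICH 2, and centring the arrays on spike-in probes moved it to 0.63 and the median of all rows to 0.39, with 20 members higher and 5 lower.

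**Figure D1:**
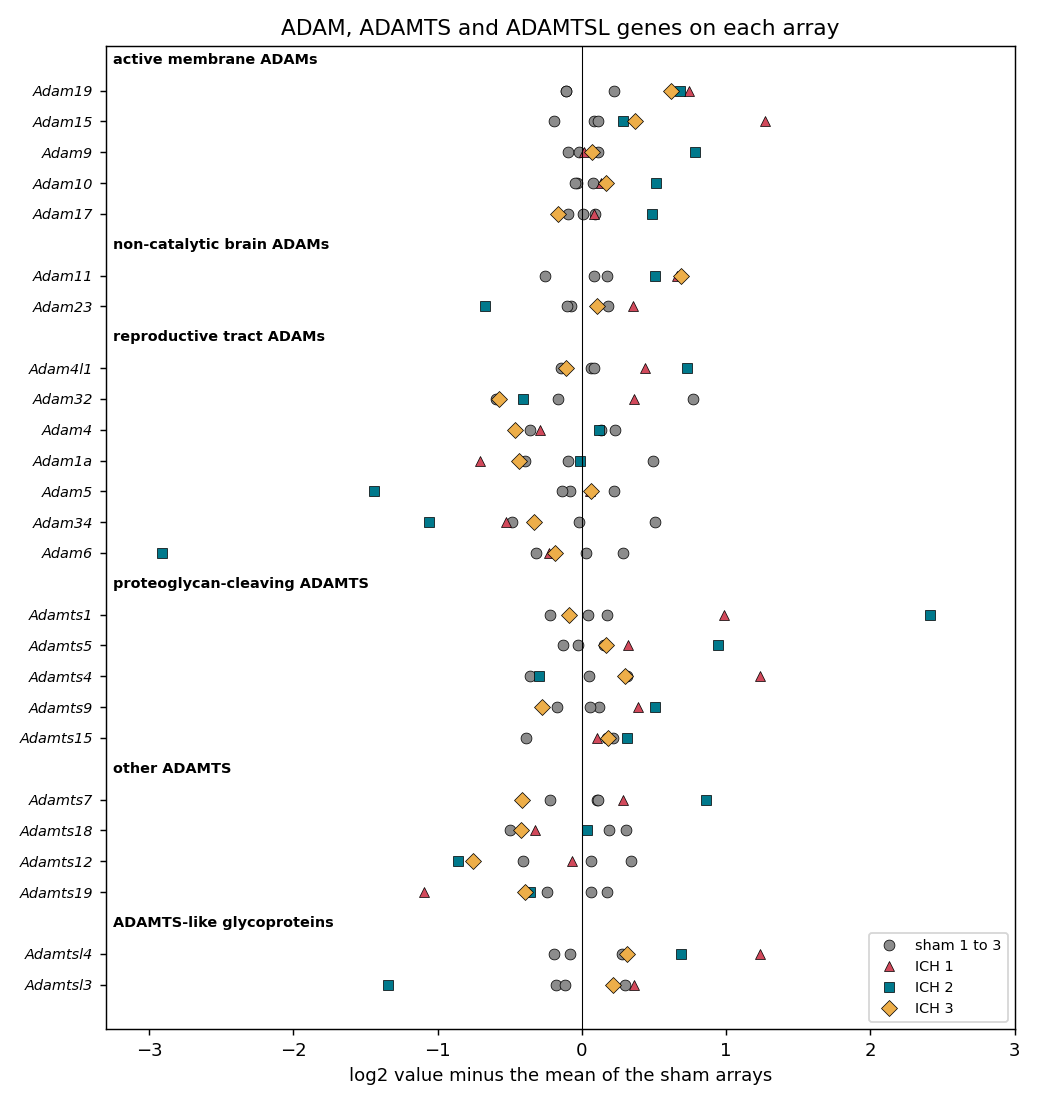
Log2 value of each of the 25 tested genes on each array minus the mean of its 3 sham arrays, with genes grouped by role, sham arrays as grey circles and ICH 1, ICH 2 and ICH 3 as triangles, squares and diamonds. The ICH 2 squares reach farthest, from −2.91 for Adam6 to 2.41 for Adamts1, while the ICH marks of Adam19 and Adam11 lie close together and to the right of all sham marks.

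**Figure D2:**
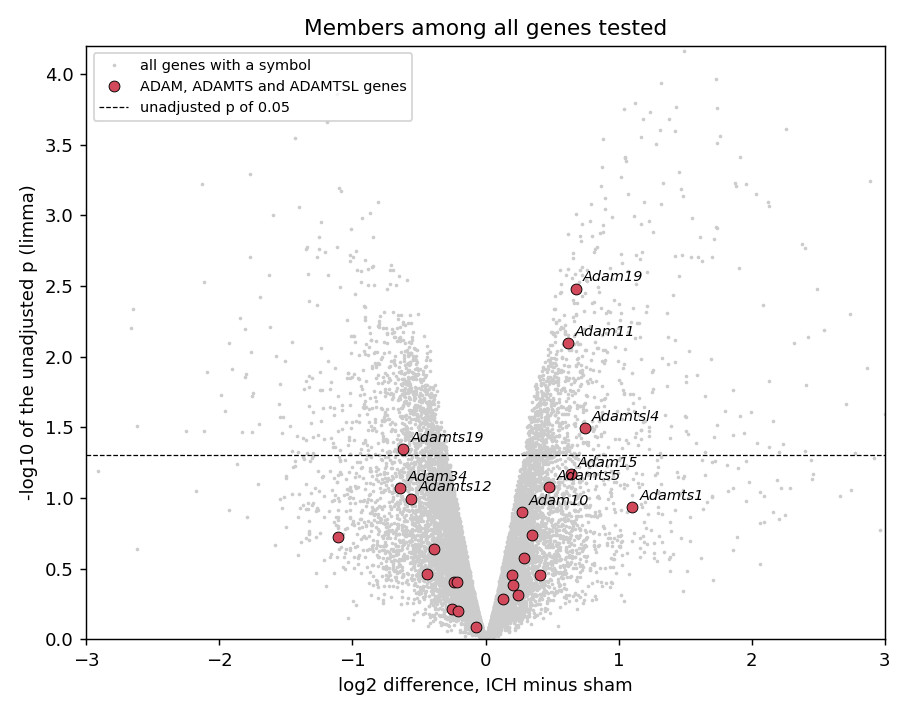
Log2 difference (ICH minus sham) against −log10 of the unadjusted limma p, with the 25 members in red over all genes with a symbol in grey and a dashed line at a p of 0.05; the axes stop at 3 on either side and at 4.2, so a few genes lie outside. Adam19, Adam11 and Adamtsl4 to the right and Adamts19 to the left are the 4 members above the line, and each lies among many other genes.

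Among the membrane ADAMs with an active protease domain, all 5 that were measured (Adam9, Adam10, Adam15, Adam17 and Adam19) had a higher ICH mean, by 0.13 to 0.68. Adam19, a sheddase of neuregulins also called meltrin beta, had the smallest unadjusted p of any member on the probe used for each gene. Its values were −1.71, −1.71 and −1.37 on sham 1 to 3 and at −0.86, −0.91 and −0.98 on ICH 1 to 3. Every ICH array lay above every sham array, and the 3 ICH values lay within a narrower range than the sham values. The difference was 0.68 ± 0.15, or 1.60-fold (unadjusted p = 0.0033, adjusted p = 0.287 by limma). It ran from 0.62 to 0.79 with any 1 array left out.

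A second Adam19 probe gave another picture. It stood at −5.65, −6.50 and −6.16 on sham 1 to 3 and at −6.36, −6.62 and −6.44 on ICH 1 to 3, well above background on all 6 arrays. The groups overlapped, with a difference of −0.37 ± 0.24 (adjusted p = 0.475 by limma on every probe) that was 0.06 with spike-in centring. With both probes averaged Adam19 differed by 0.16. Both probes name the same RefSeq transcript, and their positions on it were not used here. The RefSeq table gives that transcript to Adam19 and also lists Sox30, a gene with an entry and transcripts of its own, as another name of Adam19.

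Adam15, a membrane protease with a disintegrin domain, was at −1.63, −1.35 and −1.33 on sham 1 to 3 and at −0.16, −1.15 and −1.07 on ICH 1 to 3. The ICH arrays lay above the sham arrays, ICH 1 far more than the other two. The difference was 0.64 ± 0.29 (adjusted p = 0.365 by limma), and 0.33 without ICH 1. Adam10, which cuts Notch receptors, N-cadherin and the amyloid precursor protein, was at −5.88, −5.99 and −6.01 on sham arrays and at −5.83, −5.44 and −5.79 on ICH arrays. The groups did not overlap, yet ICH 1 and sham 1 lay close together. The difference was 0.27 ± 0.15 (adjusted p = 0.428 by limma), 0.15 without ICH 2 and 0.11 with normexp background correction, and another Adam10 probe was well above background on no array.

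Adam17, the enzyme that releases tumor necrosis factor, differed by 0.13 ± 0.20 (adjusted p = 0.740 by limma), with ICH 3 below all sham arrays and ICH 2 above them. Without ICH 2 its difference was −0.04. Adam9, a sheddase of wide expression, stood at −1.04, −1.25 and −1.17 on sham arrays and at −1.14, −0.37 and −1.08 on ICH arrays. Its difference of 0.29 ± 0.23 (adjusted p = 0.554 by limma) came from ICH 2, and was 0.04 without that array.

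The non-catalytic ADAMs of neurons went apart. Adam11 stood at −4.68, −5.11 and −4.77 on sham 1 to 3 and at −4.19, −4.35 and −4.16 on ICH 1 to 3. All ICH arrays lay above all sham arrays and close to each other. The difference was 0.62 ± 0.16, or 1.54-fold (unadjusted p = 0.00805, adjusted p = 0.301 by limma), and it was 0.49 to 0.70 with any 1 array left out. Adam23, a receptor of LGI proteins, was at −3.87, −3.61 and −3.90 on sham arrays and at −3.44, −4.46 and −3.68 on ICH arrays. ICH 2 lay below and ICH 1 above the sham range, with a difference of −0.07 ± 0.28 (adjusted p = 0.913 by limma), and of 0.36 with spike-in centring.

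Markers of striatal and of cortical projection neurons mostly went in opposite directions on the same arrays. Their part in the Adam11 difference was not tested. The 10 striatal projection neuron markers were all lower in ICH, 6 of them at an unadjusted p under 0.05, with mean levels from −0.20 to 0.99 over the sham arrays and from −0.82 to −0.34 over the ICH arrays. Of 6 cortical projection neuron markers measured 5 were higher, 4 of them at an unadjusted p under 0.05. The 1 lower marker was also at that level, with all ICH arrays below all sham arrays. Tbr1 and Bcl11b were not measured. The mean level of the cortical markers was −2.22 to −1.50 on sham and −1.10 to −0.77 on ICH arrays. Of 6 general neuron markers 3 were higher and 3 lower, with a mean level of 0.72 to 0.81 on sham and 0.61 to 1.01 on ICH arrays. At an unadjusted p under 0.05 were Syt1, higher (0.65 ± 0.13), and Map2, lower (−0.41 ± 0.17). The groups did not overlap for 3 of the higher and 2 of the lower. Of all rows, 11.0% had ICH apart and higher and 16.5% apart and lower. At an unadjusted p under 0.05, 6.16% of all rows were higher and 8.56% lower.

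The proteoglycan-cleaving ADAMTS genes measured, Adamts1, Adamts4, Adamts5, Adamts9 and Adamts15, all had a higher ICH mean, by 0.20 to 1.103, and 0 of the 5 had an unadjusted p under 0.05. Adamts1, which cleaves versican and aggrecan, had the widest spread between ICH arrays of these. It stood at −1.08, −1.48 and −1.21 on sham 1 to 3 and at −0.27, 1.15 and −1.35 on ICH 1 to 3. ICH 2 was 2.41 above the sham mean and ICH 1 0.99 above it, while ICH 3 fell among the sham arrays. The difference was 1.103 ± 0.60, or 2.15-fold (adjusted p = 0.418 by limma), and it was 1.70 without ICH 3 and 0.45 without ICH 2.

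Adamts4, the aggrecan-cleaving protease first found in cartilage, was at −4.22, −3.55 and −3.81 on sham arrays and at −2.62, −4.15 and −3.56 on ICH arrays. Only ICH 1 lay above the sham arrays. The difference was 0.41 ± 0.41 (adjusted p = 0.623 by limma), 0.77 without ICH 2 and 0.23 without sham 1, and without ICH 1 it was gone, at 0.00. Adamts5, the other main aggrecan-cleaving enzyme, was at −4.47, −4.58 and −4.30 on sham arrays and at −4.13, −3.51 and −4.28 on ICH arrays. Its ICH arrays lay above the sham arrays, ICH 3 by the least, with a difference of 0.48 ± 0.23 (adjusted p = 0.385 by limma) that was 0.24 without ICH 2. Adamts9, which cleaves versican, differed by 0.21 ± 0.24 (adjusted p = 0.668 by limma), with ICH 1 and ICH 2 above and ICH 3 below the sham arrays, and was 0.059 without ICH 2 and 0.45 without ICH 3.

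The 2 probes of Adamts15, a protease of aggrecan and versican, gave the largest disagreement in size. The brighter probe, used in the gene test, was at −0.999, −0.40 and −0.44 on sham 1 to 3 and at −0.51, −0.30 and −0.43 on ICH 1 to 3. The groups overlapped, with a difference of 0.20 ± 0.20 (adjusted p = 0.622 by limma) that was 0.0068 without sham 1. The second probe was at −6.05, −6.17 and −6.21 on sham 1 to 3 and at −4.63, −5.25 and −4.39 on ICH 1 to 3, well above background on all 6. All ICH arrays lay clearly above all sham arrays on it, with a difference of 1.39 ± 0.24 (unadjusted p = 0.0010, adjusted p = 0.206 by limma on every probe). It was 1.21 to 1.64 with any 1 array left out, 0.79 with normexp background correction and 1.82 with spike-in centring (adjusted p = 0.0412). With both probes averaged Adamts15 differed by 0.79. The second probe was singled out after its values were seen, and both name the same RefSeq transcript.

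**Figure D3:**
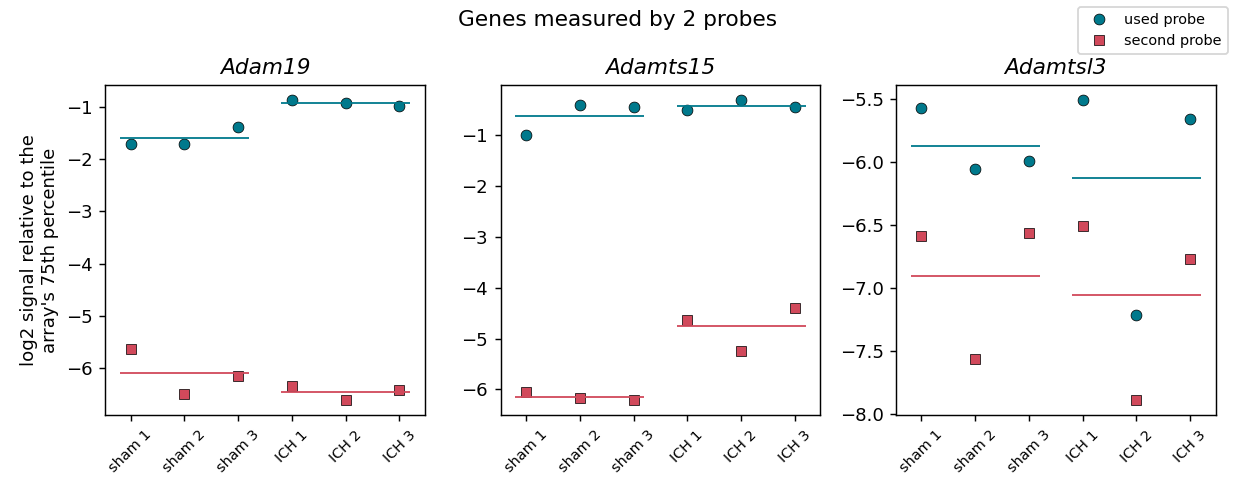
Log2 signal relative to the 75th percentile of the array on each of the 6 arrays for both probes of Adam19, Adamts15 and Adamtsl3, with teal circles for the probe used, red squares for the second probe and lines at the group means. The Adamts15 squares step up from sham (mean −6.14) to ICH (mean −4.76) while its circles overlap, and for Adam19 the circles step up and the squares do not.

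Sequence before the gene start is shown for 3 members, Adam19, Adamtsl4 and Adamts1. On the probe used for each gene, Adam19 had the smallest p of the member genes tested and Adamts1 the largest positive difference. Adamtsl4 was the ADAMTS-like gene whose groups did not overlap. RefSeq promoters of the build GRCr8 were found for 19 of the 31 genes. Each run is the 250 bases before the start, on the strand of the gene, with capitals for the matches to the motifs searched.
Adam19, chr10:30992511-30992760, plus strand: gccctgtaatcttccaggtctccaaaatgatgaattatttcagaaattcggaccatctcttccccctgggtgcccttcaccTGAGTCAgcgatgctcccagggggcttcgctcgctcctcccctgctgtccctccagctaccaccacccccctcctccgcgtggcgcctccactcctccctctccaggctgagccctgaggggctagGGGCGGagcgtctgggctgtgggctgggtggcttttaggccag
Adamtsl4, chr2:185935797-185936046, minus strand: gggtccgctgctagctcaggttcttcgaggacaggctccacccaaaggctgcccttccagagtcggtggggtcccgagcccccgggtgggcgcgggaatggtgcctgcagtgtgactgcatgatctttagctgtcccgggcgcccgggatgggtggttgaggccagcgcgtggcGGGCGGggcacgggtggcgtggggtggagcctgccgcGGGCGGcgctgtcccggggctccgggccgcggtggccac
Adamts1, chr11:38427385-38427634, minus strand: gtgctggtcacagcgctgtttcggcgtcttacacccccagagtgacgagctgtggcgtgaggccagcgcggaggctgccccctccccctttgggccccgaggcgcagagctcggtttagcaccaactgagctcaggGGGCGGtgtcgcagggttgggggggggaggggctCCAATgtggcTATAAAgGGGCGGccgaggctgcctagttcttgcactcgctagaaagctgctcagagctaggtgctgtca
The motifs were AP-1 (TGANTCA), CRE (TGACGTCA), NF-kB, the GC box (GGGCGG), the CCAAT box (CCAAT) and the TATA box (TATAAA), on both strands; the matches shown do not overlap each other. Adam19 holds an AP-1 match 169 to 163 bases before the start and 1 GC box, and AP-1 matches are found in 6.36% of 27457 rat promoters. Among the 19 member promoters, 1 holds an AP-1 match, 1 a CRE and 6 an NF-kB match. A GC box is held by 8 of them, a CCAAT box by 5 and a TATA box by 5. CRE and NF-kB matches are found in 1.7% and 16.8% of the rat promoters. Adamts1 holds a TATA box 70 to 65 bases before the start (13.1% of promoters), a CCAAT box (34.3%) and 2 GC boxes. Adamtsl4 holds 2 GC boxes and no match to the other motifs, and 32.4% of promoters hold a GC box. A match describes letters and does not show a bound site.

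Of the other ADAMTS genes, Adamts7, Adamts12, Adamts18 and Adamts19 were measured, and 3 of the 4 had a lower ICH mean. Adamts19 was the only member with every ICH array below every sham array. It stood at −5.23, −4.92 and −4.81 on sham 1 to 3 and at −6.08, −5.35 and −5.38 on ICH 1 to 3, with ICH 1 lowest and sham 1 only slightly above ICH 2. The difference was −0.62 ± 0.25, or 1.53-fold (unadjusted p = 0.0450, adjusted p = 0.338 by limma), and −0.19 with spike-in centring. Adamts12, which degrades cartilage oligomeric matrix protein, was at −6.13, −6.60 and −5.85 on sham arrays and at −6.26, −7.05 and −6.95 on ICH arrays. ICH 1 lay within the sham range, and the difference was −0.56 ± 0.29 (adjusted p = 0.402 by limma), or −0.27 with normexp background correction. Adamts7, related to Adamts12 and acting on the same protein, had 0.24 ± 0.33 (adjusted p = 0.718 by limma), with ICH 1 and ICH 2 above and ICH 3 below the sham arrays, and −0.06 without ICH 2. Adamts18 had −0.24 ± 0.26 (adjusted p = 0.653 by limma), −0.49 without sham 2, −0.084 without sham 1 and 0.19 with spike-in centring.

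Of the ADAMTS-like genes, Adamtsl4, whose product binds fibrillin microfibrils, was at −5.92, −5.57 and −6.04 on sham 1 to 3 and at −4.61, −5.15 and −5.53 on ICH 1 to 3. All ICH arrays lay above all sham arrays, though ICH 3 and sham 2 nearly met. The difference was 0.75 ± 0.27, or 1.68-fold (unadjusted p = 0.0318, adjusted p = 0.315 by limma), 0.50 without ICH 1 and 0.47 with normexp background correction. Adamtsl3, a matrix glycoprotein also called punctin-2, was at −5.57, −6.05 and −5.99 on sham arrays and at −5.51, −7.22 and −5.66 on ICH arrays. ICH 2 alone was low, with a difference of −0.26 ± 0.47 (adjusted p = 0.798 by limma) that was 0.29 without ICH 2. Its second probe, at −0.15 ± 0.45, showed ICH 2 lowest as well, at −7.89.

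The ADAMs known from the testis and epididymis were lower on average for 6 of the 7 measured, with Adam4l1 (0.35 ± 0.24) the exception, and with spike-in centring Adam1a, Adam4 and Adam32 were among the higher. All 7 had groups that overlapped and 0 of the 7 had an unadjusted p under 0.05. Adam6 had the largest negative difference of all members, at −6.09, −6.69 and −6.34 on sham 1 to 3 and at −6.60, −9.28 and −6.56 on ICH 1 to 3. The difference of −1.11 ± 0.75 (adjusted p = 0.491 by limma) lay on ICH 2, where the probe was not well above background, and was −0.21 without that array and −0.44 with normexp background correction. Adam5 was likewise low on ICH 2 alone, at −7.51, with a difference of −0.44 ± 0.43.

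Adam34 was at −5.71, −6.69 and −6.23 on sham arrays and at −6.74, −7.27 and −6.54 on ICH arrays, a difference of −0.64 ± 0.31 (adjusted p = 0.386 by limma) that was −0.35 with normexp background correction. ICH 3 lay within the sham range, and another Adam34 probe was well above background on no array. Adam1a, which encodes an alpha subunit of the sperm protein fertilin, was at −1.65, −1.95 and −1.06 on sham arrays and at −2.26, −1.57 and −1.99 on ICH arrays. ICH 2 lay within the sham range, and the difference was −0.38 ± 0.29 (adjusted p = 0.527 by limma). Adam4 differed by −0.21 ± 0.23 (adjusted p = 0.655 by limma) and Adam32 by −0.21 ± 0.42, with the widest sham spread of any member (SD 0.70).

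The members, like all rows, varied more between ICH arrays than between sham arrays. For the median member the standard deviation was 0.22 over sham arrays and 0.43 over ICH arrays, beside 0.14 and 0.31 for all rows. The ICH value was the larger in 17 of 25 members, a smaller share than the 79.7% of all rows. The array farthest from the sham mean was ICH 2 for 15 members, ICH 1 for 6 and ICH 3 for 4, where ICH 2 was farthest in 56.2% of all rows. The median member stood at 0.29 above its sham mean on ICH 1, 0.28 above it on ICH 2 and −0.09 on ICH 3, while the median of all rows was between −0.08 and −0.01 on these arrays. Without ICH 3, limma listed 8 of the 25 members at an unadjusted p under 0.05, against 21.1% of all rows. These were Adam11, Adam19, Adam4l1, Adamts1, Adamts5, Adamts9 and Adamtsl4, higher, and Adamts19, lower. Without sham 3 only Adam11 and Adam19 were left, against 7.81% of all rows. Slide rows were inferred from the last numbers of the scan names, as no sample label gives them. By these numbers the sham arrays and ICH 1 lay in row 1, and ICH 2 and ICH 3 in row 2. A fit with the row as a block therefore rests on ICH 1 against sham. With the block Adam15 differed by 1.27 and Adamts4 by 1.23, against 0.64 and 0.41 without it. Both had their highest value on ICH 1.

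The other genes of the protease system were taken from 5 lists, with 0 of their 60 measured members called by limma. Of 7 genes for inhibitors and clearance 4 were higher and 3 lower, 1 of the higher at an unadjusted p under 0.05, where 6.16% of all rows were higher at that level and 8.56% lower. That gene was A2m, the broad protease trap alpha-2-macroglobulin, at −0.14, 0.36 and 0.78 on sham 1 to 3 and at 1.86, 1.72 and 0.59 on ICH 1 to 3. Its difference was 1.06 ± 0.40 (adjusted p = 0.329 by limma), with ICH 3 inside the sham range. Timp3, the main tissue inhibitor of ADAM and ADAMTS proteases, differed by −0.35 ± 0.19 (adjusted p = 0.414 by limma), and by 0.08 with spike-in centring. Timp2, which inhibits matrix metalloproteinases, differed by −0.23 ± 0.12, and by 0.20 with spike-in centring. Timp1 stood 1.61 and 2.24 above the sham mean on ICH 1 and ICH 2 and 0.34 below it on ICH 3, with a difference of 1.17 ± 0.64 (adjusted p = 0.418 by limma).

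Of 11 genes for iRhoms, tetraspanins and convertases 5 were higher and 6 lower, with 2 higher and 1 lower at an unadjusted p under 0.05. Rhbdf2, which encodes iRhom2, the protein that carries ADAM17 to the surface of immune cells, was at −4.46, −4.08 and −3.76 on sham 1 to 3 and at −2.70, −2.21 and −3.87 on ICH 1 to 3. ICH 1 and ICH 2 lay above the sham arrays and ICH 3 among them, with a difference of 1.17 ± 0.44 (adjusted p = 0.327 by limma). Rhbdf1, its paralog of wide expression, differed by −0.23 ± 0.16, or 0.20 with spike-in centring, and Frmd8, which stabilizes iRhoms, by 0.17 ± 0.19. Tspan17, a tetraspanin partner of ADAM10, differed by 0.36 ± 0.14 (adjusted p = 0.335 by limma) and lay above all sham arrays on every ICH array. Furin, the convertase that removes the inhibitory prodomain of these proteases, differed by −0.41 ± 0.17 (adjusted p = 0.339 by limma), below all sham arrays on every ICH array, and by 0.02 with spike-in centring.

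**Figure D4:**
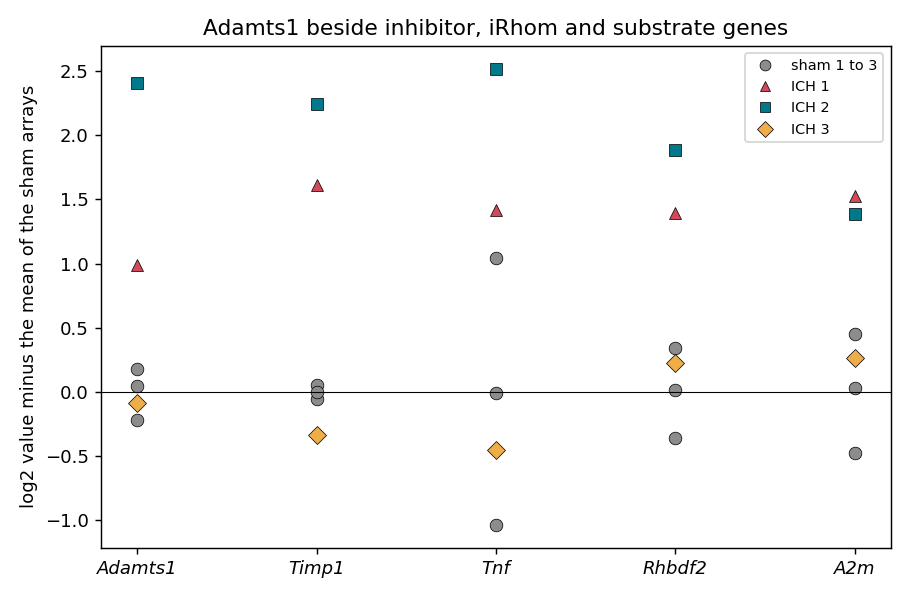
Log2 value on each array minus the mean of the sham arrays for Adamts1 and 4 other genes of the protease system, chosen after their values were seen, with sham arrays as grey circles and ICH 1, ICH 2 and ICH 3 as triangles, squares and diamonds. ICH 1 and ICH 2 stand above the sham arrays for all 5 genes (0.99 and 2.41 for Adamts1) and ICH 3 does not.

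Of 20 substrates shed by ADAM10 and ADAM17 13 were higher and 7 lower, with 0 higher and 2 lower at an unadjusted p under 0.05. The 2 were Trem2, a microglial receptor, at −0.77 ± 0.27 (adjusted p = 0.310 by limma), and Cx3cl1, the neuronal chemokine fractalkine, at −0.32 ± 0.13 (adjusted p = 0.339 by limma), or 0.11 with spike-in centring. The cytokine gene Tnf was at −5.72, −3.64 and −4.69 on sham 1 to 3 and at −3.26, −2.16 and −5.14 on ICH 1 to 3. ICH 1 and ICH 2 lay above the sham arrays and ICH 3 among them, with a difference of 1.16 ± 0.86 (adjusted p = 0.522 by limma). Its receptor genes Tnfrsf1a and Tnfrsf1b differed by 0.26 ± 0.37 and 0.56 ± 0.63, and Tnfrsf1a by −0.14 without ICH 2.

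Markers of monocytes and macrophages, of which 7 were measured, had a mean level of −3.80 to −3.48 on sham arrays and of −2.11, −1.79 and −4.13 on ICH 1 to 3. Of these 6 were higher, 0 of them at an unadjusted p under 0.05, and Ms4a7 was not measured. The 1 lower, Lyz2, was at that level (−0.44 ± 0.16), with all ICH arrays below all sham arrays. Neutrophil markers, 3 higher and 3 lower, had −5.85 to −4.70 on sham arrays and −4.07, −4.06 and −5.65 on ICH 1 to 3. For these 0 had an unadjusted p under 0.05, and Cxcr2 and Mmp8 were not measured. On ICH 2, S100a8, S100a9 and Csf3r stood 3.29, 3.31 and 3.12 above their sham means. Ngp, Camp and Retnlg stood at −1.73, −0.43 and −0.61 relative to theirs on that array. Both lists had a high mean level on the ICH arrays on which Adamts1, Timp1, Rhbdf2, A2m and Tnf were high. Their part in those values was not tested. Microglia markers, 4 higher and 4 lower, had 0.37 to 0.45 on sham and 0.08 to 0.40 on ICH arrays, with all 4 of the lower at an unadjusted p under 0.05. Of all rows 8.56% were lower at that level. Endothelial markers were lower for 7 of 8, 4 of these at an unadjusted p under 0.05, with mean levels of −1.32 to −1.22 on sham and −1.82 to −1.50 on ICH arrays. All 8 astrocyte and all 8 oligodendrocyte markers of the labelled tissue, brain, were measured. Astrocyte markers were lower in ICH for 6 of 8, 2 of these at an unadjusted p under 0.05, with mean levels of 1.38 to 1.50 on sham arrays and of 1.18, 1.49 and 1.17 on ICH 1 to 3. Oligodendrocyte markers were lower for 8 of 8, 1 of these at an unadjusted p under 0.05, with mean levels of 1.29 to 1.64 on sham arrays and of 1.35, 0.52 and 1.37 on ICH 1 to 3.

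Of 12 matrix substrates of ADAMTS proteases 6 were higher and 6 lower, with 1 higher and 3 lower at an unadjusted p under 0.05. Bcan, which encodes brevican, the main target of ADAMTS4 in brain matrix, was at 2.05, 1.87 and 1.89 on sham 1 to 3 and at 0.91, 1.16 and 1.51 on ICH 1 to 3. All ICH arrays lay below all sham arrays, with a difference of −0.74 ± 0.19 (adjusted p = 0.301 by limma). Ncan, for neurocan, and Acan, for aggrecan, differed by 0.14 ± 0.17 and 0.02 ± 0.37. The type I collagen genes Col1a1 and Col1a2 differed by −1.01 ± 0.18 (adjusted p = 0.224 by limma) and −0.62 ± 0.15 (adjusted p = 0.301 by limma), both with all ICH arrays below all sham arrays. Hapln4, a link protein that fixes proteoglycans to hyaluronan, differed by 0.81 ± 0.26 (adjusted p = 0.302 by limma), with all ICH arrays above. Markers of fibroblasts and meninges, a list that holds both collagen genes, were lower for 7 of 8, with mean levels of −0.11 to 0.38 on sham and −0.41 to 0.07 on ICH arrays, and their part in the collagen values was not tested.

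Of 10 LGI ligands and partners of ADAM22 6 were higher and 4 lower, with 2 higher and 0 lower at an unadjusted p under 0.05. Lgi1, the secreted ligand that bridges ADAM22 and ADAM23 across synapses, was at −1.72, −1.92 and −1.88 on sham 1 to 3 and at −1.23, −1.37 and −0.82 on ICH 1 to 3. All ICH arrays lay above all sham arrays, with a difference of 0.70 ± 0.18 (adjusted p = 0.301 by limma). Kcna2, a subunit of the axonal potassium channels found with these proteins, was at −5.72, −5.31 and −5.21 on sham arrays and −4.53, −4.90 and −4.71 on ICH arrays. It differed by 0.70 ± 0.19 (adjusted p = 0.301 by limma), again with no overlap, and by 0.41 with normexp background correction. Lgi2 and Lgi3 differed by 0.07 ± 0.28 and −0.33 ± 0.40. The mean cortical marker level given with Adam11 was higher on every ICH array as well, with 1 of its 6 markers lower. Its part in these values was not tested.

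**Figure D5:**
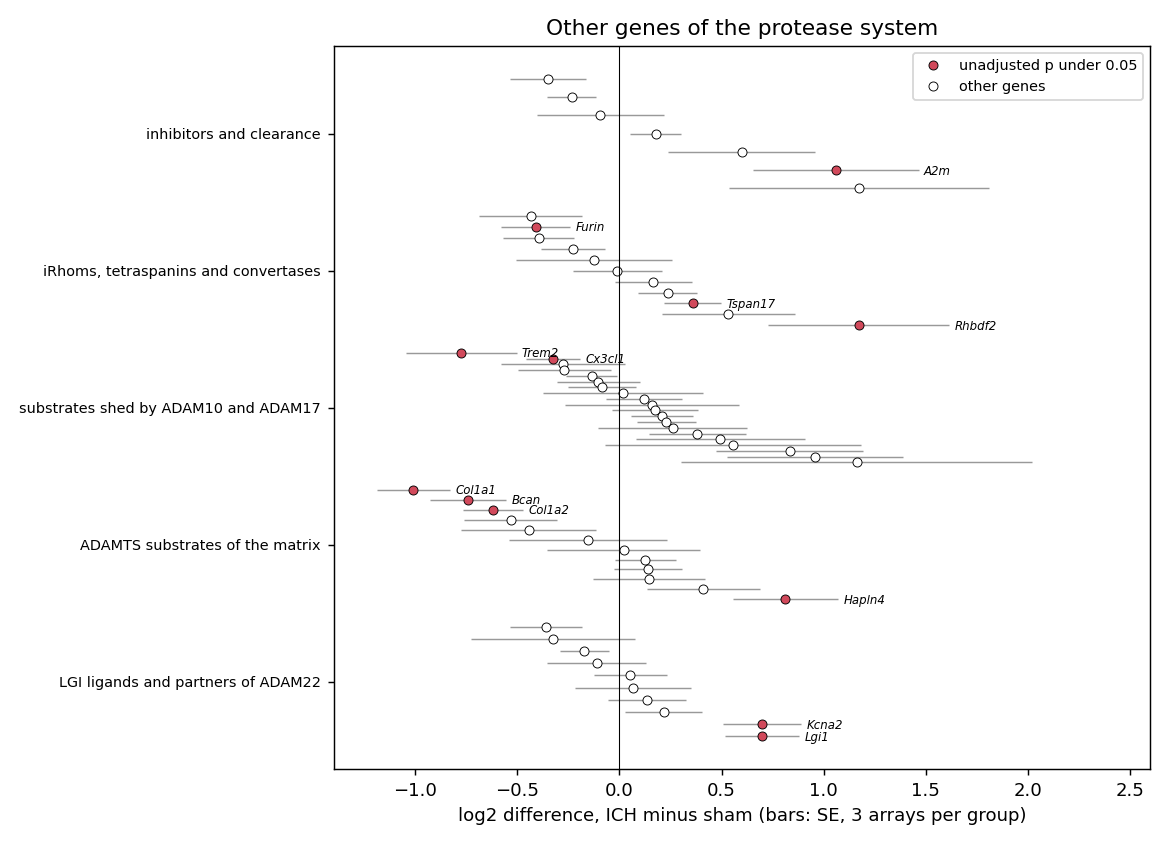
Log2 difference (ICH minus sham) with its SE, 3 arrays per group, for the 60 measured genes of 5 lists, 1 point per gene, with the genes at an unadjusted limma p under 0.05 in red and named. The differences run from −1.01 for Col1a1 to 1.17 for Timp1 and Rhbdf2, and genes of each list lie on both sides of 0.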

How the data were processed

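Total RNA of brain tissue was hybridized to 6 single-channel Agilent arrays, 1 per sample. Agilent Feature Extraction 11.5.1.1, per the file headers, subtracted background from the intensity values and detrended them array by array, with no normalization across arrays, and spots carry marks (0 or 1) for signal well above background, saturation and non-uniformity. The submitters' processing notes name version 10.7. The deposited log2 values, which the choice of members refers to, equalled the values used here within 0.001, after removing 1 offset per array (0.284 to 0.323), for 98.5% to 99.3% of probes. They served as an alternative, since the scanner files carry the background marks.

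For each array the 75th percentile of log2 intensity was subtracted. Non-uniform spots, 1 to 9 an array, were dropped and the remaining spots averaged by probe. At least 0.5 of the spots had to be well above background for the probe to count as such. Symbols came from the RefSeq table of assembly GRCr8 by transcript accession, used for names only: 18355 probes had 1 symbol and 12012 none. The 22179 rows held 12963 symbols. The 58717 non-control spots of each array included 0 saturated ones, 81.8% to 85.4% were well above background, and correlations between arrays were 0.947 to 0.991.

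The test was that of limma 3.58.1 under R 4.3.3 (lmFit, eBayes, Benjamini-Hochberg over all rows), a procedure tested on simulated data. The members and lists were chosen with earlier results of these data known. Members were named in full if their unadjusted p was under 0.05, if among the 10 largest differences, or as the first 2 measured of a role; other members were given so that each is accounted for. Pathway genes were named as the first 3 measured of a list or by an unadjusted p under 0.05. Alternatives were another background correction (normexp, offset 50), quantile, median and spike-in (7 probes) normalization, other filters, probe rules, variance models and blocks, and leaving out each array. Replicate numbers did not pair the arrays: deviations of same-numbered arrays correlated at −0.19, −0.01 and 0.07.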

Additional observations from a re-analysis of the deposited data

Results flagged for a closer look

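The Adam30 probe, left out of the test as too dim, was well above background on 1 array, ICH 2, at −7.30 relative to the 75th percentile of that array. The sham arrays stood at −9.05, −9.38 and −9.06, none well above background, and ICH 1 and ICH 3 at −9.92 and −9.49.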

How the results depend on the processing

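No alternative called a member gene, while the second Adamts15 probe passed with spike-in centring (1.82, adjusted p = 0.0412 by limma). Of 28 member results 17 kept their direction under every alternative tried. Over all rows limma called 3 with normexp, 33 with spike-in centring, 2 with probes well above background on all arrays, 3 with an intensity trend and robust variance, 6 with array weights, and 0 to 36 with 1 array left out (8 without ICH 2, 36 without ICH 3). Members at an unadjusted p under 0.05 numbered 7 with spike-in centring (23.5% of all rows). With 1 array left out they ran from 2 without sham 3 (7.81% of all rows) to 8 without ICH 3 (21.1%). Members with groups apart numbered 10 with spike-in centring (40.7% of all rows) and 7 to 12 with 1 array left out, where fewer arrays make overlap rarer. The 12 came without sham 2 (37% of all rows) and without ICH 3 (43%). The member median was 0.63 with spike-in centring and 0.06 to 0.28 with 1 array left out. With the replicate number as a block, which the data do not bear out as a pairing, limma called 0 members and listed 5 at an unadjusted p under 0.05 (10.9% of all rows), against 4 without it (14.7%). Differences that changed sign, with their values, were with spike-in centring Adam1a 0.045, Adam4 0.22, Adam32 0.22, Adam23 0.36, Adamts18 0.19, Adamtsl3 0.17, Timp3 0.080, Timp2 0.20, Rhbdf1 0.20, Furin 0.019, Cx3cl1 0.11, Lgi3 0.10, Adam19 second probe 0.061, Adamtsl3 second probe 0.28; with array weights Adam17 −0.0072, Adam23 0.19, Adamtsl3 0.22, Adamtsl3 second probe 0.067; with median centring Acan −0.055, Lgi2 −0.0095; and with slide row as a term Adam32 0.36, Adam23 0.35, Adamtsl3 0.36, Adam5 0.055, Lgi3 0.24, Adamtsl3 second probe 0.40. Leaving out 1 array gave ranges across 0 for Adam32 −0.51 to 0.18, Acan −0.21 to 0.43, Lgi2 −0.15 to 0.35, Adamtsl3 second probe −0.48 to 0.27, Adam23 −0.28 to 0.23, Adamts7 −0.063 to 0.57, Adam17 −0.042 to 0.28, Adamtsl3 −0.56 to 0.29, Adam5 −0.69 to 0.060, Tnfrsf1a −0.14 to 0.57, Lgi3 −0.61 to 0.13. The cause of these changes was not tested. Dim probes limit Adam5, Adam6 and the second Adamtsl3 probe, which were well above background on 2 of 3 ICH arrays.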
